A study of Mus musculus with 6 samples.

Results

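Keratins and desmosome proteins form one mechanical system in epithelial cells. Keratin filaments assemble from pairs of a type II keratin, such as keratin 8, and a type I keratin, such as keratin 18 or 19. They are anchored at desmosomes, where the cadherins desmoglein and desmocollin join neighbouring cells, plakoglobin and plakophilins bind the cadherin tails, and desmoplakin links these to the filaments. Keratins 8 and 18 are the first keratins of the embryo and mark simple epithelia, among them the retinal pigment epithelium, while keratins 5 and 14 mark the stratified epithelia that come from surface ectoderm.

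The genes described are Krt8, Krt18, Krt19, Dsp, Dsg2, Dsc2, Jup, Pkp2, Pkp4 and Perp, chosen by name with earlier results of these data known. Every Affymetrix probe set that the platform annotation assigns to 1 of these symbols is included. The group makes up 24 of 45101 probe sets, and 10 of 18193 genes. The arrays measured optic fissure, the ventral groove of the optic cup, taken by laser microdissection from C57BL/6J mouse embryos at E11.5. The 3 FGFR mutant arrays came from Six3Cre+;Fgfr1fx/fx;Fgfr2fx/fx embryos, in which a Cre driven by Six3 regulatory sequence, active in the early eye field, can recombine both receptor genes. The 3 control arrays came from Six3Cre-;Fgfr1fx/fx;Fgfr2fx/fx embryos, so both groups carried the floxed alleles and differed by the transgene. The title numbers 8711, 9216 and 9266 each name 1 mutant and 1 control array. Separate embryos, litters or pools are not stated in the labels for the arrays within a group, so the p-values rest on a spread between arrays that may be technical. With 3 arrays a group, their number limits the precision of every value. Whether more cells of a type or more RNA per cell lies behind a difference cannot be told apart in such bulk samples.

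The mutant 8711 array stood apart from the other 5. Its median intensity was 18.1, against 28.7 to 34.6, and its Gapdh ratio of 3 prime to 5 prime signal was 93.6, against 4.26 to 15. Results are therefore also given without it. In the remaining 5 arrays Xist was lower in the mutants (log2 difference -6.84, limma adjusted p = 0.0166), and the sex of the embryos is not given. A part of sex in any difference thus cannot be told apart from that of genotype. The brightest Fgfr1 probe set ranged from 59.9 to 141 in the mutant arrays and from 89.8 to 247 in the control arrays, and that of Fgfr2 from 869.9 to 1316 in the mutant arrays and from 314 to 474 in the control arrays. Whether these probes lie in the floxed parts is not known here, so they do not check the genotypes. All 6 markers listed for the optic stalk and ventral optic cup were tested, and their values are given with the other marker lists.

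Krt8 and Krt18 lie next to each other among protein-coding genes on mouse chromosome 15, 23.9 kb apart with 2 non-coding genes between them, and are transcribed away from each other. The RefSeq upstream sequences (build GRCm38.p6, 250 bases ending at the base before the annotated start) are shown for 4 genes. By their brightest probe sets the mutant and control values of these genes did not overlap, and they are shown because they had higher values together. They are written 5′ to 3′ along the gene's own strand, and the capitals mark matches, on either strand, to the motifs searched. The windows are chr15:102004343-102004592 (minus strand) for Krt8, chr15:102027966-102028215 (plus strand) for Krt18, chr13:38151044-38151293 (plus strand) for Dsp and chr2:59160600-59160849 (plus strand) for Pkp4.
Krt8: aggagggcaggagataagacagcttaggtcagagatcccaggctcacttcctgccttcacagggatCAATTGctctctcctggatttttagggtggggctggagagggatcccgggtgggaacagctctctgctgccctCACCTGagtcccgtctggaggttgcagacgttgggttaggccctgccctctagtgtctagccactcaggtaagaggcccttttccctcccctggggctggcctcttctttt
Krt18: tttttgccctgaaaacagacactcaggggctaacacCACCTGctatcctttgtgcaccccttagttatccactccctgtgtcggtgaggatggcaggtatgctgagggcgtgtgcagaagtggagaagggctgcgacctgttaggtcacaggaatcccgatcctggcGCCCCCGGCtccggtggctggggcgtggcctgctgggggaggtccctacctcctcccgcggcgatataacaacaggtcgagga
Dsp: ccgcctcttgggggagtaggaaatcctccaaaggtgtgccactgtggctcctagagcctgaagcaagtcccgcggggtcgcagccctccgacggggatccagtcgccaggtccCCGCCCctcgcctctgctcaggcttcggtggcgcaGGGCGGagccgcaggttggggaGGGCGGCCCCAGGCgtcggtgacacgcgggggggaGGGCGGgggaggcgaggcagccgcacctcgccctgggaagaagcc
Pkp4: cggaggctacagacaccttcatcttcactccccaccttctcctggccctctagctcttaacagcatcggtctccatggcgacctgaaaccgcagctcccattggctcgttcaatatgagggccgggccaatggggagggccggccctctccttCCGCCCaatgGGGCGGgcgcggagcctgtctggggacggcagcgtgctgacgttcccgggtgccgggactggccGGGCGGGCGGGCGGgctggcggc

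The motifs were GGGCGG, the core of an Sp1 site, CANNTG, the E-box, GCCNNNGGC, an AP-2 type site, TGANTCA, an AP-1 type site, AACCNGTT, a grainyhead type site, and TATAAA, the TATA box. Dsp had 4 and Pkp4 had 5 matches to GGGCGG, 3 of those in Pkp4 overlapping, and Krt8 and Krt18 had 0, while 32.7% of 32851 upstream windows of the same length held at least 1. Krt8 had 2 E-boxes and Krt18 had 1, and 66.2% of windows held one. Krt18 and Dsp had 1 match each to GCCNNNGGC, found in 13.7% of windows, and in Dsp it overlaps a GGGCGG match. TGANTCA, AACCNGTT and TATAAA had 0 matches in the 4 windows, and occurred in 6.75%, 1.79% and 12.4% of all windows. The upstream windows of the neighbouring keratin genes thus had no motif in common except the E-box, of which the Dsp and Pkp4 windows had 0. RefSeq gives Pkp4 a second upstream window (chr2:59161619-59161868, plus strand), not printed here, with 0 matches to GGGCGG and 2 E-boxes, so the Pkp4 counts hold for the printed window only.

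Read from the brightest tested probe set, 4 genes had higher values in all 3 FGFR mutant arrays than in any control array. They were the keratin pair Krt8 and Krt18, the filament linker Dsp and the armadillo gene Pkp4. The differences were 0.87 to 1.47 on the log2 scale. Another tested probe set of Krt8 and another of Pkp4 had overlapping groups, and that of Pkp4 differed by -0.36. The desmosomal cadherins Dsg2 and Dsc2, the plakophilin Pkp2 and the membrane protein gene Perp had overlapping groups, and Krt19 and Jup were too dim to test. No probe set of the 10 genes passed adjustment over all 27022 tested probe sets, so none of these differences is called.

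Of the 24 probe sets, 15, from 8 genes, passed the filter on dim signal, a mean log2 value of at least 4.07, or an intensity of about 15.1. With limma, 0 of the 15 had an adjusted p under 0.05, and the same held for all probe sets tested, with 0 called (0%). At an unadjusted limma p under 0.05, 6 of the 15 were higher in the mutants, against 3.02% of all tested probe sets, and 0 were lower, against 2.55%. The same 6 probe sets had groups that did not overlap, with the mutants higher, against 7.08% of all tested probe sets, and 0 were lower without overlap, against 6.39%. By gene, each read from its brightest tested probe set, 4 of 8 were higher at an unadjusted p under 0.05, against 4.4% of 12282 genes, and 0 lower, against 2.52%. The same 4 genes did not overlap, with the mutants higher, against 9.44%, and 0 were lower without overlap, against 5.43%. The median log2 difference over the 8 genes was 0.66, against 0.03 over all tested genes. Of the 15 probe sets, 5 would have been under the filter on their control values alone, 3 of them among the 6 without overlap (both Dsp probe sets and 1 of Krt8). These could enter the test only by being brighter in the mutants, so the counts describe the tested probe sets and not all 24. The genes were also chosen with earlier results of these data known, so the counts describe them and are no independent support. Without the mutant 8711 array 6 of 14 tested probe sets were higher at an unadjusted p under 0.05, against 4.95% of all, and 0 were lower, against 3.73%. Without the mutant 9266 array 3 of 14 were, against 2.65% of all.

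**Figure D1:**
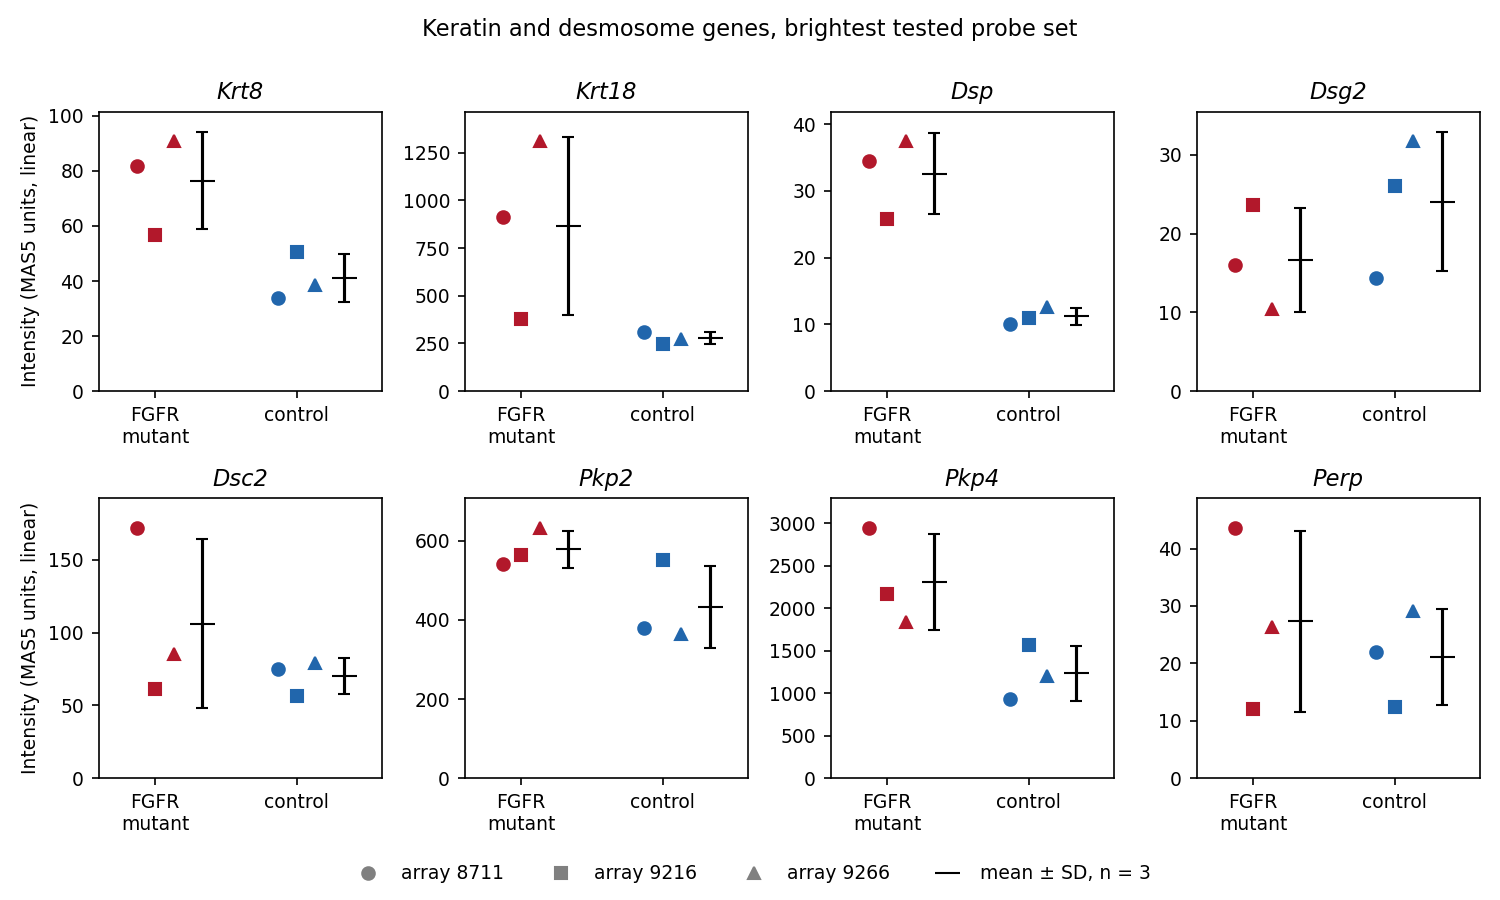
Intensity (MAS5 units, linear axis from 0) of the brightest tested probe set of each of 8 genes in 3 FGFR mutant arrays (red, left) and 3 control arrays (blue, right), with marker shape for the title number and bars for the mean ± SD. The groups do not overlap for Krt8, Krt18, Dsp and Pkp4, and mutant 9216 is the lowest mutant array for Krt8, Krt18 and Dsp.

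Krt18, the type I partner of keratin 8, had intensities of 913, 379 and 1309 in mutant arrays 8711, 9216 and 9266, and of 311, 249 and 273 in the control arrays of the same numbers. All 3 mutant arrays lay above the highest control, but mutant 9216 lay close to it. The mutants averaged 867 ± 467 and the controls 278 ± 31.4 (SD, n = 3 each), a log2 difference of 1.47 (SE 0.44, 95% interval 0.41 to 2.53), with a limma p of 0.0136 and an adjusted p of 0.709. The spread among the mutants was thus far wider than that among the controls. Leaving out 1 array at a time gave 1.08 (without mutant 9266) to 1.98 (without mutant 9216), with adjusted p from 0.427 to 0.999. Krt18 has 1 probe set on this array.

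Krt8, the type II keratin of the pair, was measured by 3 probe sets. The brightest (1420647_a_at) had 81.8, 56.8 and 90.7 in mutant arrays 8711, 9216 and 9266, and 33.7, 50.6 and 38.5 in the control arrays. The groups did not overlap, and both 9216 arrays lay nearest to the other group. The means were 76.4 ± 17.6 in the mutants and 40.9 ± 8.71 in the controls (SD, n = 3 each), a log2 difference of 0.87 (SE 0.32, 95% interval 0.10 to 1.63), with an adjusted p of 0.852. With 1 array left out it was 0.73 to 1.06. A second probe set (1423691_x_at) had 59.7, 35.9 and 59.1 in the mutants and 27.6, 15.6 and 4.1 in the controls, again without overlap, and a log2 difference of 1.86 (SE 0.62, adjusted p = 0.790). The third (1435989_x_at) had 41.9, 15.5 and 45.6 in the mutants and 33.8, 2.4 and 30.8 in the controls, with overlap and a difference of 0.97 (SE 0.91). Without control 9216 the third probe set gave -0.05. The suffix _x_at marks probe sets in which some probes can also match other transcripts, a mark that the first probe set does not carry.

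Krt19, a type I keratin of simple and ductal epithelia, had 1 probe set and stayed under the filter. It read 11.1, 1.8 and 10.6 in the mutant arrays and 1.9, 1.9 and 0.9 in the control arrays. Mutant arrays 8711 and 9266 were above all controls and mutant 9216 was among them, the same order of the mutant arrays as in Krt8 and Krt18 in that 9216 was lowest. All values were below the filter intensity of 15.1, so no test is given.

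Dsp encodes desmoplakin, the plakin that ties keratin filaments to the desmosome plaque. Its brightest probe set (1435493_at) had 34.5, 25.8 and 37.4 in mutant arrays 8711, 9216 and 9266, and 10.1, 10.9 and 12.6 in the control arrays. The lowest mutant was above the highest control by more than the range within either group. The means were 32.6 ± 6.04 in the mutants and 11.2 ± 1.28 in the controls (SD, n = 3 each), a log2 difference of 1.40 (SE 0.33, 95% interval 0.62 to 2.17), with a limma p of 0.00377 and an adjusted p of 0.536. Every control value of this probe set lay under the filter intensity of 15.1, so it entered the test only through the mutant arrays, and the size of the difference and its p are no independent support. With 1 array left out the difference was 1.30 to 1.55, with adjusted p from 0.336 to 0.999. A second probe set (1435494_s_at) had 45.6, 13.4 and 42.3 in the mutants and 7.9, 12.1 and 8.4 in the controls, a difference of 1.52 (SE 0.52, adjusted p = 0.819), with mutant 9216 just above the controls, and its control values too were all under the filter. The third (1427610_at) was near 0 in every array, at 0.5 to 3.0 in the mutants and 0.6 to 6.8 in the controls.

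**Figure D2:**
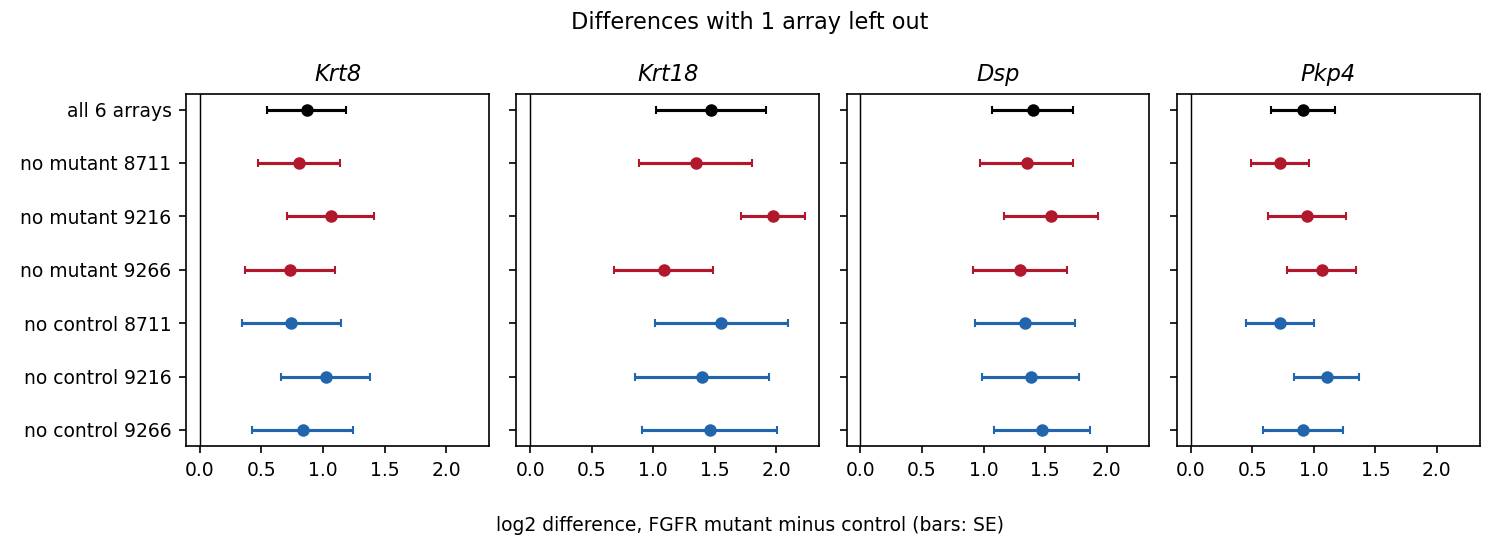
Log2 difference (FGFR mutant minus control, x axis, with SE bars) of Krt8, Krt18, Dsp and Pkp4 with all 6 arrays (black) and with 1 mutant (red) or 1 control (blue) array left out. Each gene is drawn from its brightest tested probe set. Every value drawn lies above 0, and Krt18 ranges from 1.08 to 1.98. Other probe sets of Krt8 and Pkp4, not drawn, reach -0.05 and -1.48 with 1 array left out.

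The desmosomal cadherins, which make the contact between cells, had overlapping groups. The tested Dsc2 probe set (desmocollin 2, 1426911_at) had 171.5, 61.1 and 85.2 in mutant arrays 8711, 9216 and 9266 and 75.3, 56.4 and 79.3 in the control arrays. The high value was that of mutant 8711 alone. Its log2 difference was 0.46 (SE 0.42, 95% interval -0.54 to 1.46, adjusted p = 0.852), and 0.05 without mutant 8711. The other Dsc2 probe set read 1.1 to 2.9 in the mutants and 2.5 to 8.2 in the controls. Dsg2 (desmoglein 2), the most widely expressed desmoglein, had 6 probe sets, of which 1 passed the filter. That probe set (1449740_s_at) had 16, 23.6 and 10.4 in the mutants and 14.4, 26.1 and 31.7 in the controls, a log2 difference of -0.49 (SE 0.45, 95% interval -1.55 to 0.58, adjusted p = 0.852). It was the 1 gene of the 8 with a lower mutant value, and the interval holds values on both sides of 0. The 5 dimmer Dsg2 probe sets ranged from 0.3 to 21.2 in the mutants and from 0.3 to 16.5 in the controls, with overlap in each.

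Among the armadillo proteins of the plaque, Jup encodes plakoglobin, which binds the cadherin tails in desmosomes and adherens junctions. Its 1 probe set had 18.8, 2.2 and 8.0 in the mutant arrays and 11.9, 3.1 and 34.0 in the control arrays. It was under the filter, and the groups overlapped. Pkp2, plakophilin 2, the plakophilin of simple epithelia and heart, had 540, 564 and 631 in mutant arrays 8711, 9216 and 9266 by its brightest probe set (1449799_s_at), and 380, 553 and 365 in the control arrays. Control 9216 lay within the mutant range and the other 2 controls below it. The log2 difference was 0.44 (SE 0.23, 95% interval -0.09 to 0.98, adjusted p = 0.852), and 0.63 without control 9216. The other 3 Pkp2 probe sets had differences of 0.28, 0.00 and 0.99, each with overlapping groups.

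Pkp4 (also called p0071) belongs to the same plakophilin and p120 catenin family and occurs at adherens junctions as well as desmosomes. Its brightest probe set (1452209_at) had 2936, 2160 and 1833 in mutant arrays 8711, 9216 and 9266, and 926, 1571 and 1198 in the control arrays. The groups did not overlap, with mutant 8711 highest. The means were 2310 ± 567 in the mutants and 1232 ± 324 in the controls (SD, n = 3 each), a log2 difference of 0.91 (SE 0.26, 95% interval 0.29 to 1.53), with a limma p of 0.0106 and an adjusted p of 0.684. It was 0.73 without mutant 8711 and 1.10 without control 9216. The second Pkp4 probe set (1438677_at) had 15.4, 518 and 960 in the mutants and 224, 471 and 167 in the controls. In mutant 8711 it was the lowest of all 6 arrays while the first probe set was the highest. Its difference was -0.36 (SE 1.45) with all arrays and 1.43 without mutant 8711. Averaging both probe sets gave Pkp4 a difference of 0.28.

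Perp encodes a small membrane protein of the desmosome that p53 and p63 induce. Its 1 probe set had 43.5, 12.1 and 26.4 in mutant arrays 8711, 9216 and 9266 and 22.0, 12.4 and 29.1 in the control arrays. The 9216 array was the lowest of each group. The log2 difference was 0.26 (SE 0.54, 95% interval -1.03 to 1.54, adjusted p = 0.921) and turned to -0.14 without mutant 8711.

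**Figure D3:**
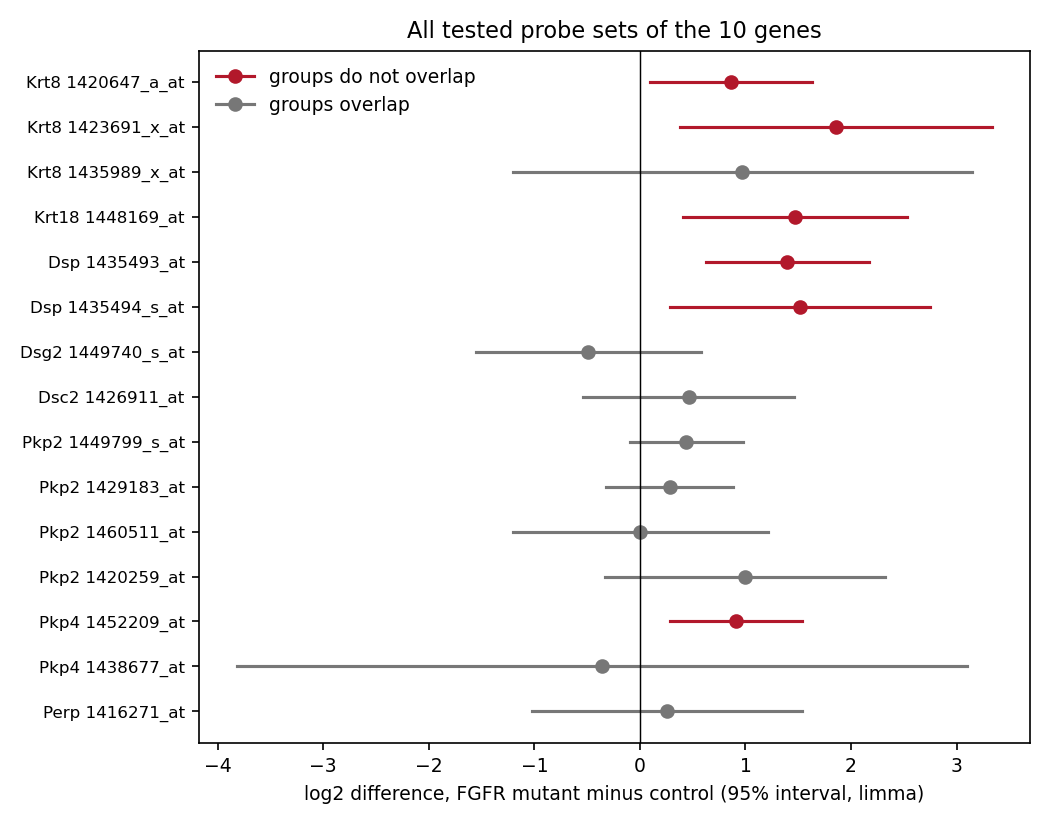
Log2 difference between FGFR mutant and control (x axis, limma, with 95% intervals) for the 15 tested probe sets, in red where the groups do not overlap. The red probe sets are 2 of Krt8, 2 of Dsp and 1 each of Krt18 and Pkp4, and the second Pkp4 probe set has the widest interval, -3.82 to 3.10.

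The pattern over the 6 arrays was compared with that of other genes, as the root mean square difference of log2 values after each gene was centred on its own mean. Nearest to Krt18 were Igfbp7, a secreted protein related to IGF binding proteins (0.10), Gucy1a1, a subunit of soluble guanylate cyclase (0.13), Eva1a (0.15), Smpdl3a, a phosphodiesterase (0.18), and Bace2, an aspartyl protease (0.20). Igfbp7 had 356, 166 and 577 in mutant arrays 8711, 9216 and 9266, and 133, 92.1 and 103 in the control arrays, with mutant 9216 lowest of the mutants as in Krt18. Nearest to Krt8 were Ppargc1a, a coactivator of mitochondrial genes (0.08), Mamdc2 (0.10), Tifa, a TRAF-binding adaptor (0.11), Cavin2, a protein of caveolae (0.13), and Cthrc1, a secreted protein (0.13). Ppargc1a had 383.5, 287 and 413 in the mutants and 166, 274 and 199 in the controls, with control 9216 highest of the controls as in Krt8. Krt8 and Krt18 differed from each other by 0.51 on this measure, more than Krt8 differed from Pkp2 (0.29), Pkp4 (0.30) or Dsp (0.32), and Krt18 was nearest to Dsp (0.41) among the group. The arrays share their scaling and their groups, so these distances describe the pattern and carry no test.

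Genes that work beside these were read from lists. Of 15 other keratins, 3 were tested (Krt1, Krt5 and Krt10), 12 were under the filter, and 0 passed in either direction at an adjusted or an unadjusted p under 0.05, where the unadjusted p had 4.4% of all genes higher and 2.52% lower. Krt1, a keratin of the upper epidermis, had 35.0, 22.9 and 54.4 in the mutants and 14.2, 11.3 and 25.7 in the controls, with overlap and a log2 difference of 1.05 (SE 0.46, adjusted p = 0.852). Krt5, of basal stratified epithelium, had 10.0 to 21.1 in the mutants and 16.9 to 24.0 in the controls. Of 11 other desmosome genes, 8 were on the array and 4 tested (Pkp1, Pkp3, Evpl and Ppl), with differences from -0.18 to 0.26 and 0 past either threshold. The hemidesmosome and linker list had 4 of 7 genes tested (Cd151, Dst, Plec and Itga6), with 0 past either threshold and a median difference of 0.09. Over 7 tested genes of other intermediate filaments 0 passed either threshold. The median there was -0.30, and Nes, the nestin of neural progenitors, had 72.5, 12.5 and 105 in the mutants and 145, 116 and 150 in the controls (log2 difference -1.51, SE 0.74, adjusted p = 0.852). For Nes mutant 9216 was far below the rest. The groups did not overlap for Nes, Lmna and Lmnb1, nor for Cd151 of the linker list, all lower in the mutants. Among all tested genes 5.43% were lower without overlap.

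Of 13 adherens junction genes tested, 1 had an unadjusted p under 0.05 and was higher, 0 were lower by that rule, 0 passed adjustment, and the median was -0.02. That gene was Vcl, vinculin, which couples cadherins and integrins to actin, with 1302, 857 and 982 in the mutants and 649.7, 675 and 679 in the controls, a log2 difference of 0.63 (SE 0.21, adjusted p = 0.773). Arvcf and Ctnnd2, of the same catenin family as Pkp4, had lower mutant values, at -0.60 (SE 0.26, adjusted p = 0.852) and -0.68 (SE 0.33, adjusted p = 0.852). The groups did not overlap for Vcl and Arvcf, and overlapped for Ctnnd2. Among all tested genes 9.44% were higher and 5.43% lower without overlap. Cdh1, the cadherin of epithelia, was dim in both groups, at 0.4 to 28.6 in the mutants and 17.6 to 37.9 in the controls. Of 9 tight junction and polarity genes tested, 0 passed either threshold, the median was 0.02, and the smallest p was that of F11r, a junctional adhesion molecule, at -0.87 (SE 0.41, adjusted p = 0.852). The groups overlapped for F11r. Pard3 was lower without overlap, at -0.43 (SE 0.22, adjusted p = 0.852).

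Markers of the cell types that hold keratins, or that border the fissure, were summed per array over each list. Among all tested genes, 53.6% had higher mutant values (64.7% after median centring of the arrays), 4.4% had an unadjusted p under 0.05 with the mutants higher, 2.52% with the mutants lower, and the count of each list is read against these shares. For the retinal pigment epithelium, 12 of 12 tested genes had higher mutant values, 8 of them at an unadjusted p under 0.05 and 0 past adjustment. The sum was 23980 to 39094 in the mutants and 14928 to 17216 in the controls, without overlap, and the sums of periocular mesenchyme, macrophage and erythroid markers were also higher without overlap. Among the mutants the pigment epithelium sum was highest in array 9266 and lowest in 8711. Single genes of the list differed in this order. Rab38, Tfec, Mitf and Dct, which had the smallest p, were each lowest in mutant 9216, and others were lowest in 8711. For surface ectoderm and epidermis, 20 genes of which Perp is 1, 9 were tested, 4 with higher and 5 with lower mutant values and 0 past either threshold. Its sum was 411 to 609 in the mutants and 356 to 455 in the controls, with overlap. The smallest p was that of Grhl2, a grainyhead factor of surface epithelia, with 22.0, 28.8 and 37.5 in mutant arrays 8711, 9216 and 9266 and 7.2, 21.1 and 17.8 in the control arrays, without overlap (log2 difference 0.95, SE 0.46, adjusted p = 0.852). Tfap2b, an AP-2 factor, had 60.7, 187.5 and 274.4 in the mutants and 68.9, 57.9 and 116.3 in the controls, with overlap (log2 difference 0.90, SE 0.59, adjusted p = 0.852). The next smallest p were those of Cdh1 and Krt5, which had lower mutant values. They differed by -1.48 (SE 0.98) and -0.43 (SE 0.39), each with overlap and an adjusted p of 0.852. None of the genes of this list was at 0 in every array, but 11 stayed under the filter. Among them were Krt14 (1.1 to 16.2 in the mutants and 0.6 to 15.1 in the controls), Krt15 (0.9 to 2.7 in the mutants and 1.0 to 2.3 in the controls) and Trp63 (5.9 to 15.6 in the mutants and 6.5 to 15.9 in the controls).

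Of 10 lens markers 6 were tested, 5 with lower mutant values and 0 past either threshold, and the median log2 difference was -0.70. The lens sum was 1485 to 3225 in the mutants and 2275 to 3365 in the controls, with overlap. Within the mutants, array 9216 was the lowest, as it was for the neural retina, hemidesmosome, other desmosome and other intermediate filament sums. It was also the lowest for Krt18, Krt8, Krt19 and Dsp, and for Rab38, Tfec, Mitf and Dct of the pigment epithelium list. Some other genes of that list were lowest in 8711, as was its sum (23980, against 27364 in 9216). For the remaining lists the lowest mutant sum was that of 8711 or 9266. Array 9216 had the highest mutant sum for periocular mesenchyme, macrophage and tight junction markers. Periocular mesenchyme markers (9 of 9 tested genes with higher mutant values, 3 at an unadjusted p under 0.05) summed to 2762 to 3132 in the mutants and 1053 to 2277 in the controls. Macrophage markers (5 of 8 higher, a share near that of all genes, and 3 at an unadjusted p under 0.05) summed to 2116 to 2538 in the mutants and 1324 to 1725 in the controls. Erythroid markers (4 of 4 tested higher, 1 at an unadjusted p under 0.05) summed to 7442 to 8701 in the mutants and 4209 to 7422 in the controls. Endothelial markers, with 6 of 8 tested, overlapped, at 252 to 473 in the mutants and 313 to 641 in the controls. Neural retina progenitor markers summed to 4960 to 6284 in the mutants and 7788 to 8340 in the controls. Of 8 tested genes 7 were lower in the mutants, 4 of them at an unadjusted p under 0.05. The 1 higher gene, Pax6, was also under 0.05, with 1955 to 2367 in the mutants and 1442.5 to 1776 in the controls. Its groups did not overlap (log2 difference 0.51, SE 0.16, adjusted p = 0.765). Optic stalk and ventral optic cup markers summed to 3661 to 6761 in the mutants and 6541 to 8790 in the controls. Of the 6 tested genes 4 were lower in the mutants, 2 of them at an unadjusted p under 0.05. Of these, Vax1, a homeobox gene of the optic stalk, had 323, 245 and 80.1 in the mutants and 733, 595 and 559 in the controls (log2 difference -1.74, SE 0.51, adjusted p = 0.688), and Aldh1a3, which makes retinoic acid in the ventral retina, had 4927, 3430 and 2330 in the mutants and 6234, 4995 and 5521 in the controls (-0.71, SE 0.27, adjusted p = 0.852), both without overlap. Ntn1 (netrin 1) differed by -1.28 (SE 0.61) and Tbx2 by 1.07 (SE 0.52), and the ventral homeobox gene Vax2 had 420 to 742 in the mutants and 524 to 929 in the controls, each of the 3 with overlapping groups and an adjusted p of 0.852. Bmp7 had 370 to 539 in the mutants and 277 to 493 in the controls, with overlap (log2 difference 0.24, SE 0.28, adjusted p = 0.865). The part of any of these cell types in the keratin and desmosome values was not tested.

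**Figure D4:**
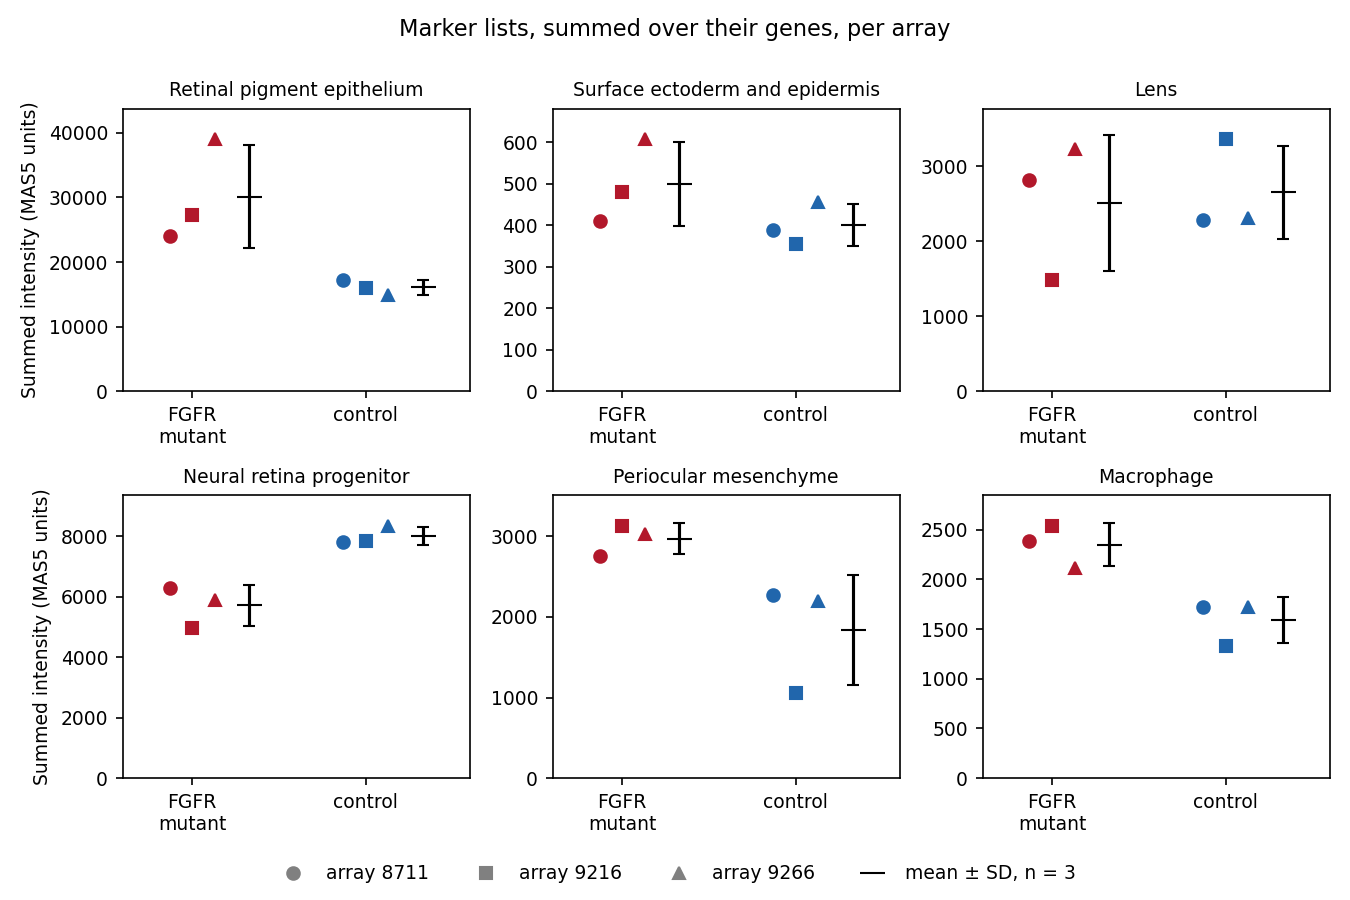
Summed intensity (MAS5 units, axis from 0) of 6 marker lists in the FGFR mutant arrays (red, left) and the control arrays (blue, right), with bars for the mean ± SD. The pigment epithelium, periocular mesenchyme and macrophage sums are higher in the mutants and the neural retina sums lower, each without overlap, while the surface ectoderm and lens sums overlap.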

How the data were processed

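The deposited table gives 1 linear intensity value for each probe set on each array. The submitters' processing notes name MAS5 as the authors' tool, with its version not given in the sources used here. A check of the values found that the 2% trimmed mean was 150 in each array, so the deposited intensities were used without further normalization. Per the labels' protocols, biotin-labelled cRNA was made from 10 ug of Trizol-extracted RNA. Of 45037 probe sets that are not controls, 34945 have 1 symbol, 932 several and 9160 none in the platform annotation. All 10 symbols matched the RefSeq gene table.

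Values were transformed as log2(intensity + 1.7), the 10th percentile of all values, so fold changes of dim genes are understated. Probe sets under the 40th percentile of mean log2 value were left out. Mutant and control were compared with limma 3.58.1 (trend, robust) in R 4.3.3 with statmod 1.5.0, adjusted by Benjamini-Hochberg over 27022 probe sets, threshold 0.05. The fit was tested on simulated data. A gene is read from its brightest tested probe set. From each list of related genes and markers, genes past adjustment, otherwise up to 4 with the smallest p, could be named, besides all 10 genes and the 5 nearest in pattern to Krt8 and to Krt18. Genes outside that rule (Krt14, Krt15, Trp63, Vax2 and Bmp7) were chosen after their values were seen. The genes and lists were chosen with earlier results of these data known. Figures used Python 3.11.15 and matplotlib 3.10.9.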

Additional observations from a re-analysis of the deposited data

How the results depend on the processing

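Alternatives were other added values (1 and 16), quantile normalization, median centring, no filter, a filter at the 60th percentile, the title number as a block, limma without trend and robust, array weights, the mean of all probe sets of a gene, and leaving out each array. Of the tested probe sets of the 10 genes, 0 passed an adjusted p of 0.05 under any of these fits. The fits over all probe sets called 0, except 184 with array weights (100 higher, 84 lower; weight of mutant 8711 0.151) and, with 1 array left out, 0 to 1, the 1 being Xist without mutant 8711. By the unadjusted limma p with all arrays, 817 were under 0.05 and higher, and 689 under 0.05 and lower. With array weights 9 genes of the related and marker lists were called, led by Rab38 and Fgf15, and none was a keratin or junction gene. Krt8, Krt18, Dsp, Pkp2 and Pkp4 kept a positive difference in every alternative that could test them, by the brightest probe set, though some moved by over 1.5 times: Dsp to 0.83 with 16 added, Krt18 to 0.95 with array weights and Pkp4 to 0.28 as the mean of its probe sets. Of the other Krt8 probe sets, 1423691_x_at moved to 1.21 without control 9266 and 1435989_x_at to -0.27 with array weights. With array weights Dsg2 turned to 0.048, Dsc2 to -0.048 and Perp to -0.38, and with 1 array left out Perp ran from -0.14 to 0.71, at -0.06 without control 9216. The cause was not tested. The filter at the 60th percentile left Dsp, Dsg2 and Perp untested. Median centring moved the median of all tested genes by 0.11. It shifts every difference by the same amount, so distances from that median cannot change. In the main fit Krt8, Krt18, Dsp and Pkp4 lay 0.83, 1.44, 1.37 and 0.88 above the median. With quantile normalization they lay 0.90, 1.42, 1.39 and 0.79 above it. Deviations of same-numbered arrays correlated at 0.05, 0.48 (9216) and -0.11, against -0.45 to 0.35 for arrays with different numbers. With 3 arrays a group this cannot settle whether the numbers mark pairs. As a replicate block the title numbers gave 0 calls and left the median over the 8 genes at 0.66. Under the block 3 of the 8 genes had an unadjusted p under 0.05, against 4 without it, since that of Krt8 was 0.0672, and Pkp2 probe set 1420259_at had 0.0391. Signal near background limits Krt19, Jup, most Dsg2 probe sets and Dsp in the controls.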
